A study of Drosophila melanogaster with 4 samples.

Results

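The maternal dorsoventral pathway of Drosophila melanogaster was followed in RNA sequencing of ovaries through 10 genes, taken by symbol from a table of 17475 genes: ndl, pip, gd, snk, ea, spz, Tl, pll, cact and dl. ndl and pip act in the follicle cells around the oocyte (2 genes), and the other 8 are transcribed in the germline and their products act in the egg or embryo. Ovaries came from 7-day-old adults kept at 25 °C, of w1118, a white-eyed laboratory strain labelled as wild type (2 control libraries), or of the wuho mutant allele wh7 in the w1118 strain background (2 wh7 libraries). All 4 libraries therefore share w1118. Whether the mutant flies were homozygous, and how many animals went into a library, is not stated in the labels. Since the labels do not tell whether libraries of a genotype were made from different flies, every p-value here reflects the spread between libraries alone, and that spread may be technical. The sample descriptions name another experiment, with RNA interference against tkv, whereas titles, source names and genotype fields give control or wh7, and the latter were followed.

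In the Drosophila ovary the egg receives its dorsoventral axis from the follicle cells. The oocyte sends the ligand Gurken to dorsal follicle cells, where Egfr signalling restricts pip, a sulfotransferase gene, to the ventral side. Pipe sulfates components of the vitelline membrane, and after egg laying the proteases Nudel, Gastrulation defective, Snake and Easter act in sequence to cleave the ligand Spätzle on that side. Spätzle binds the receptor Toll, the kinase Pelle relays the signal, the inhibitor Cactus is degraded, and the Rel protein Dorsal enters ventral nuclei. The germline members are maternal transcripts that the ovary loads into the egg.

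Values are FPKM, fragments per kilobase of transcript scaled to sequencing depth, so levels can be compared between genes. wuho, the mutated gene, was checked first and stood at 24.7 and 25.4 FPKM in control ovaries, against 0.832 and 0.646 FPKM in wh7. The tissue label was matched by ovary transcripts, with the germline gene vas at 172 to 196 FPKM and the yolk protein gene Yp1 at 116 to 640.3 FPKM over the 4 libraries. Markers of other cells were higher in wh7. All 11 tested muscle sheath markers (summed level 87.8 to 111 FPKM in controls, 1168 to 2156 FPKM in wh7), 5 of 6 tested hemocyte markers of 9 (37.8 to 56.7, then 238 to 330.4 FPKM) and 7 of 7 tested follicle cell markers of 8 (58.2 to 88.2, then 312 to 375 FPKM) were called higher (follicle cell markers 4 without wh7 2, hemocyte markers 3 without control 1), and 0 of the 3 lists' markers lower. With no filter the counts were 3 of 11, 2 of 9 and 2 of 8. Eggshell genes of late follicle cells swung between replicates, with a summed level of 4178 and 24898 FPKM in the controls and 12815 and 3708 FPKM in wh7, and 0 of 10 were called, against 8 called lower in a fit that pairs library 1 of a genotype with library 2 of the other (crossed replicate pairing). In bulk ovary RNA, fewer cells of a type and less RNA per cell cannot be told apart, and the part of these cell mixtures in the results below was not tested.

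Of the 8 germline genes of the dorsoventral pathway 7 fell in wh7 ovaries, and the follicle cell genes ndl and pip gave no call. A gene is called here when its adjusted p falls under 0.05 in limma, a linear model that pools the spread across genes, fitted to log2(FPKM + 1) over the 8580 genes that reached 1 FPKM or more in 2 or more libraries. All 10 members passed that filter in both genotypes. By this test gd, ea, spz, Tl, pll, cact and dl (7 of 10) fell and 0 rose, beside 18.4% of all tested genes called lower and 21.2% called higher (39.7% in all). With FPKM rescaled to the same sum the table gave 1902 genes higher and 919 lower, and 4 members lower. The median change of the 10 members was -0.50 on the log2(FPKM + 1) scale, and -0.04 over all tested genes. In 8 members both wh7 libraries lay under both controls, as in 41.3% of tested genes, and in pip both lay above, as in 35.7%. The reductions were moderate, between 28.3% and 41.6% of the control mean for the 7 called genes, and 0 members dropped under 50% of control.

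The 7 calls depended on which libraries were in the fit. Without control 1 the number called lower was 0, without control 2 it was 5, without wh7 1 it was 3 and without wh7 2 it was 1. The calls over the whole table shrank with them, from 1583 genes called lower to 60, 304, 605 and 185. After quantile normalization the count was again 7, with snk and pip in place of cact and dl. The direction of the 8 germline members was downward in each of the 13 alternative fits. Since both wh7 libraries lay under both controls in each of these genes, only the fits that rescale the libraries could have reversed it. With no filter ea, Tl and pll held their calls. Of the other called list genes named below, piwi, me31B, nos, cas, Fas2, sel, Tango1, Spn77Ba, Dif and Fs(2)Ket held their calls. The calls of the remaining list genes named below ended. The authors' deposited table marked ea and Tl (2 of 10) as significant, beside 4.62% of tested genes marked and lower.

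**Figure D1:**
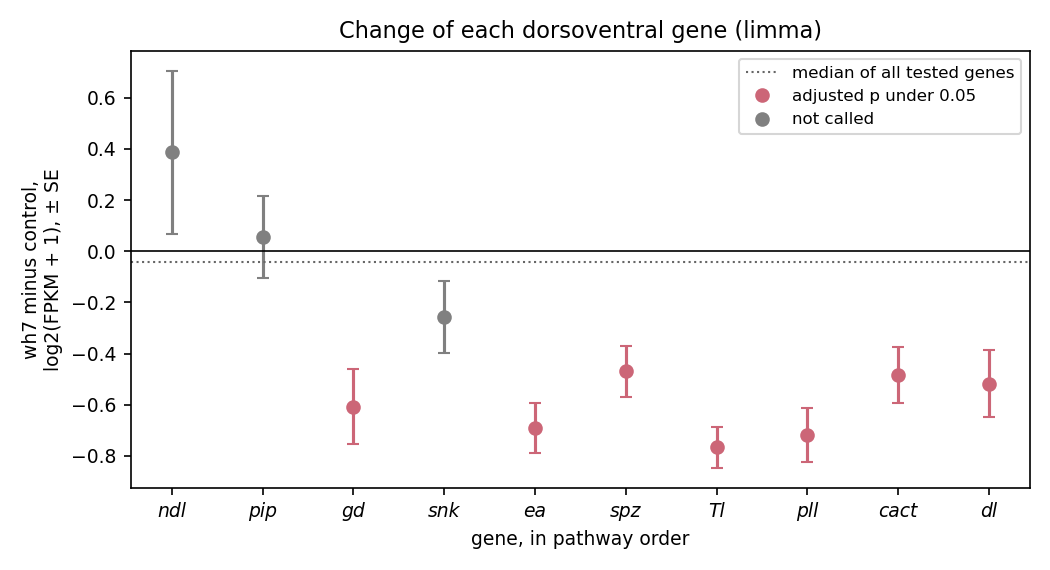
Change of each gene from control to wh7 on the log2(FPKM + 1) scale with its limma standard error, in pathway order, with 2 libraries per genotype. The 7 genes with an adjusted p under 0.05 lie between -0.77 and -0.47, snk lies at -0.26, and ndl and pip lie above 0.

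Expression levels kept nearly the same order in both genotypes. In controls cact was highest at 280.1 FPKM, then Tl, spz, dl, ea, pll, gd, ndl, snk and, at 2.97 FPKM, pip. The ranges of neighbours in this order did not overlap, except for gd and ndl. In wh7 ovaries ndl stood above gd, and Tl and spz, 1.24-fold apart in controls, had overlapping ranges with means 1.01-fold apart. The inhibitor gene cact was 3.99-fold above its target dl in controls and 4.08-fold in wh7. Precision differs along this order, since pip rested on roughly 79 to 113 reads per library and Tl on roughly 5812 to 12246, from the FPKM that a single read is worth and the annotated transcript lengths.

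**Figure D2:**
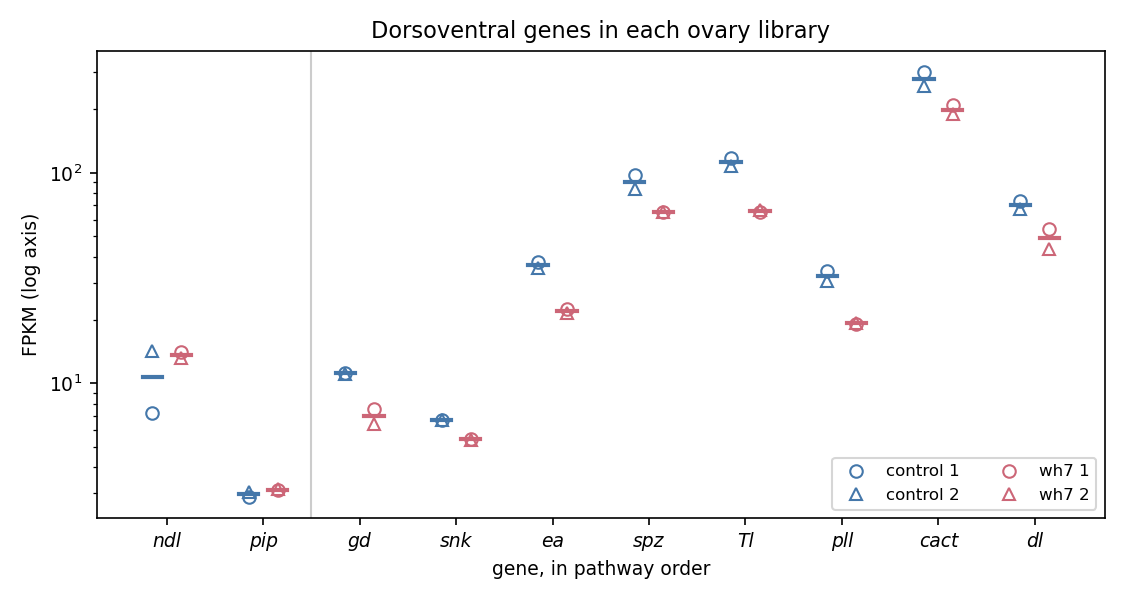
FPKM of the 10 genes in each library on a log axis, in pathway order, with follicle cell genes left of the vertical line and short bars at the means of the 2 libraries. The wh7 points lie under the control points for the 8 germline genes from gd to dl, and ndl in control 1 lies apart from the other 3 libraries.

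Among the germline proteases, ea and gd fell, and snk did not pass the test. gd (FBgn0000808, X:11985154-11987764, minus strand, BDGP6) encodes the protease that activates Snake, with control values of 11.2 and 11.1 FPKM and wh7 values of 7.56 and 6.42 FPKM. Both wh7 libraries were thus lower, with a change of -0.61 ± 0.146 (SE) and a limma adjusted p of 0.0328, which was 0.0665 to 0.153 when any 1 library was left out. snk (FBgn0003450, 3R:13040165-13042770, minus strand), whose product cleaves Easter, was at 6.71 and 6.66 FPKM and then at 5.46 and 5.40 FPKM. Its wh7 values were 81.3% of control with no overlap, and its change of -0.26 ± 0.141 (SE) had a limma adjusted p of 0.204. After quantile normalization snk was called lower, with a change of -1.01 and an adjusted p of 0.0195. ea (FBgn0000533, 3R:15328729-15330408, plus strand), the protease that cleaves Spätzle, was the highest of the proteases at 37.6 and 35.2 FPKM in controls and 22.7 and 21.6 FPKM in wh7. It fell by 39.1% (change -0.69 ± 0.0973 SE, limma adjusted p = 0.0111, 0.0834 without control 1 and 0.0640 without wh7 2).

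The ligand, the receptor and its kinase fell as well. spz (FBgn0003495, 3R:27064990-27070070, minus strand), the gene of the Toll ligand, was at 97.6 and 83.8 FPKM in controls and at 65.2 and 64.9 FPKM in wh7. The wh7 libraries lay close together and under both controls, and the change of -0.47 ± 0.0993 (SE) had a limma adjusted p of 0.0250 (0.137 without control 1, 0.0943 without wh7 1 and 0.119 without wh7 2). Tl (FBgn0262473, 3R:26799041-26842403, plus strand), the receptor gene, was at 117 and 107.5 FPKM and then at 65.0 and 66.3 FPKM. It had the largest reduction of the 10 genes, 41.6%, with a change of -0.77 ± 0.0804 (SE) and a limma adjusted p of 0.00688, and its call ended without control 1 (0.0521). pll (FBgn0010441, 3R:27251131-27253182, minus strand), a serine/threonine kinase gene, was at 34.1 and 30.7 FPKM and then at 19.2 and 19.4 FPKM. Its reduction of 40.4% was of similar size (change -0.72 ± 0.106 SE, limma adjusted p = 0.0120), and its call ended without control 1 (0.0857), wh7 1 (0.0541) or wh7 2 (0.0694).

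cact and dl, which act last, fell by 28.7% and 30.2%. cact (FBgn0000250, 2L:16313036-16326207, minus strand), the IκB-type inhibitor that holds Dorsal in the cytoplasm, was at 301.4 and 259 FPKM in controls and at 209.8 and 189.6 FPKM in wh7. The groups did not overlap, and the change was -0.48 ± 0.110 (SE) with a limma adjusted p of 0.0292 (0.138 without control 1, 0.0761 without wh7 1 and 0.144 without wh7 2). dl (FBgn0260632, 2L:17436830-17450364, minus strand), the gene of the NF-κB family protein Dorsal, was at 73.2 and 67.0 FPKM in controls and at 54.1 and 43.7 FPKM in wh7. Its wh7 libraries were lower but further apart than those of Tl or pll, and the change of -0.52 ± 0.129 (SE) had the largest adjusted p of the 7 called genes (limma, 0.0362, and 0.175 without control 1, 0.0913 without control 2 and 0.114 without wh7 2). The calls of cact and dl also ended after quantile normalization, with FPKM rescaled to the same sum, without a mean-variance trend and with no filter, that of spz with the rescaled sum and with no filter, and that of gd with no filter and with the crossed replicate pairing.

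The relation between members within a library, which does not depend on scaling between libraries, separated 2 kinds of pair. Some pairs overlapped or nearly met. dl was 0.243 and 0.259 of cact in controls and 0.258 and 0.231 in wh7, ea was 3.37 and 3.16 times gd and then 3.001 and 3.36 times, and pll was 0.290 and 0.285 of Tl and then 0.295 and 0.292, slightly higher in wh7. Others stood further apart without overlap. spz was 0.831 and 0.779 of Tl in controls and 1.002 and 0.979 of it in wh7, snk was 0.601 and 0.599 of gd and then 0.723 and 0.841, and ea went from a mean of 5.44 times snk to 4.07 times. A permutation test (exact, two-sided) of 2 and 2 libraries allows no p under 0.333 for a single ratio, so these ratios are given without a test.

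**Figure D3:**
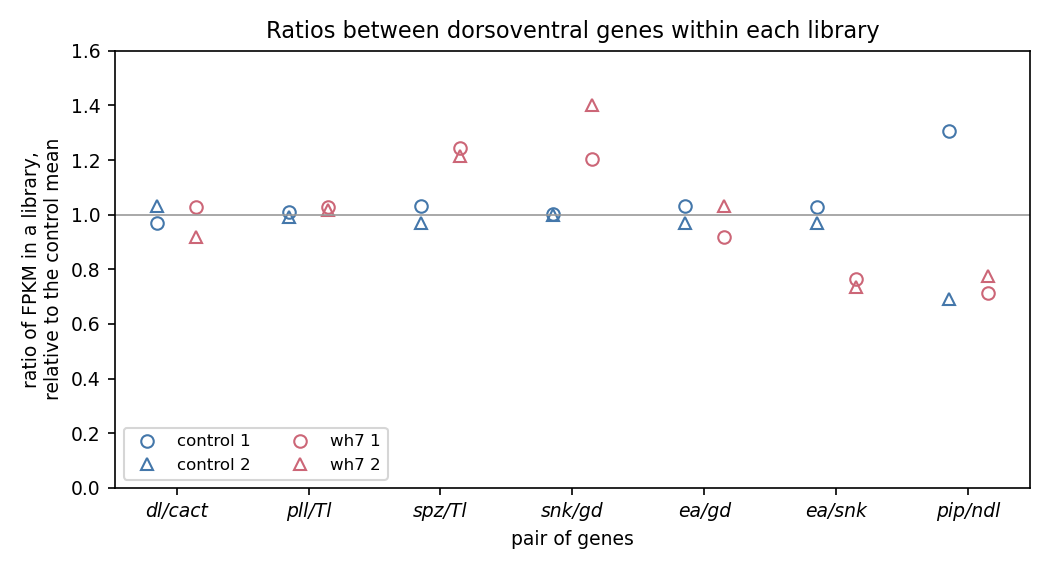
Ratio of FPKM between 2 dorsoventral genes in each library, divided by the mean ratio of the controls, so that 1 is the control mean. The wh7 points lie 1.23-fold above control for spz/Tl and 1.30-fold above for snk/gd, overlap with control for dl/cact and ea/gd, and control 1 stands apart for pip/ndl.

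The germline members were also lower beside the mean of a list of germline markers, though not beside each marker. Over all tested genes 21.2% were called higher and 18.4% lower. Of 12 germline markers 2 were called higher and 5 lower (1 and 1 without control 1 or wh7 2, 1 and 2 without control 2, 2 and 3 without wh7 1), and their geometric mean was 162 and 159 FPKM in controls and 142 and 149 FPKM in wh7, or 90.9% of control. me31B, an RNA helicase gene, fell from 1751 to 871 FPKM (limma adjusted p = 0.00679, call lost without wh7 2), and piwi, a gene of piRNA silencing, rose from 93.6 to 175 FPKM (0.00516). Relative to that geometric mean, all 8 germline dorsoventral genes were lower in both wh7 libraries than in both controls. The mean includes piwi and aub, the markers called higher, and was not recomputed without them. Whether each marker is transcribed only in the germline was not tested. Tl was 72.4% and 67.7% of the marker mean in controls and 45.7% and 44.4% in wh7. The relative level kept 64.3% of control for Tl, 67.1% for ea and 89.5% for snk, the smallest reduction. Single markers differed widely in their own FPKM. me31B was at 49.7% of control, less than any member, bcd at 61.0%, nos at 65.9%, gus at 71.2%, BicD at 79.5% and aret at 82.6%. The other markers, orb, osk, vas, grk, aub and piwi, were at 90.3% to 187%.

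The follicle cell genes ndl and pip gave no call. ndl (FBgn0002926, 3L:6593938-6603366, minus strand), a large secreted protease that acts at the head of the cascade and in eggshell crosslinking, was at 7.21 FPKM in control 1, 14.3 in control 2 and 14.1 and 13.2 in wh7. Control 1 alone was low and control 2 lay above both wh7 libraries, so the groups overlapped (change 0.39 ± 0.319 SE, limma adjusted p = 0.369), and without control 1 the change was -0.06. pip (FBgn0003089, 3L:19298623-19337609, minus strand), the sulfotransferase gene, was at 2.90 and 3.04 FPKM in controls and at 3.10 and 3.14 FPKM in wh7. The wh7 values were slightly higher without overlap, and the change of 0.05 ± 0.160 (SE) had a limma adjusted p of 0.806. After quantile normalization its change was -0.94 with an adjusted p of 0.0248.

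Over the same libraries the 7 tested follicle cell markers had a geometric mean of 5.42 and 7.76 FPKM in controls and 33.1 and 37.5 FPKM in wh7. cas, a zinc finger gene of early follicle cells, rose from 0.963 to 15.1 FPKM (limma adjusted p = 0.00281) and the adhesion gene Fas2 from 8.25 to 67.4 FPKM (0.00281). Relative to that mean ndl was at 133% and 184% in controls and 42.7% and 35.1% in wh7, and pip at 53.5% and 39.2% and then 9.36% and 8.37%. Relative to the geometric mean of the 6 vitelline membrane genes, which late follicle cells make, the groups overlapped for both (ndl at 1.93% and 1.37% and then 1.93% and 4.93%, pip at 0.777% and 0.291% and then 0.423% and 1.18%). The direction of both thus depended on the follicle cell genes they were set against.

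Low values in control 1, as for ndl, were also seen in some genes chosen after their values were seen. wbl, the gene of the endoplasmic reticulum chaperone that Pipe needs, was at 1.12 FPKM in control 1, 5.41 in control 2 and 4.42 and 6.01 in wh7. tsl, whose product activates the terminal system from follicle cells, was at 0.715, 1.91, 1.98 and 2.35 FPKM in the same order, and fs(1)M3, whose product sits in the eggshell, at 37.4, 53.6, 41.4 and 48.8 FPKM. In each of these genes control 1 was the lowest library, whereas fs(1)N, from the same terminal list, was lowest in wh7 (59.3 and 65.5, then 41.8 and 39.5 FPKM), and the sulfate donor gene Papss was at 18.5 and 22.1 and then 18.2 and 21.4 FPKM. The 6 vitelline membrane genes of the list of Pipe substrates were all higher in control 2 than in control 1 and in wh7 1 than in wh7 2. Of these Vm34Ca was at 1537 and 5373 FPKM in controls and at 2866 and 945 FPKM in wh7, and Vm26Aa at 980.4 and 3092 and then 2561 and 1217 FPKM. All 6 could be tested and 0 were called, against 2 called lower with the crossed replicate pairing.

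**Figure D4:**
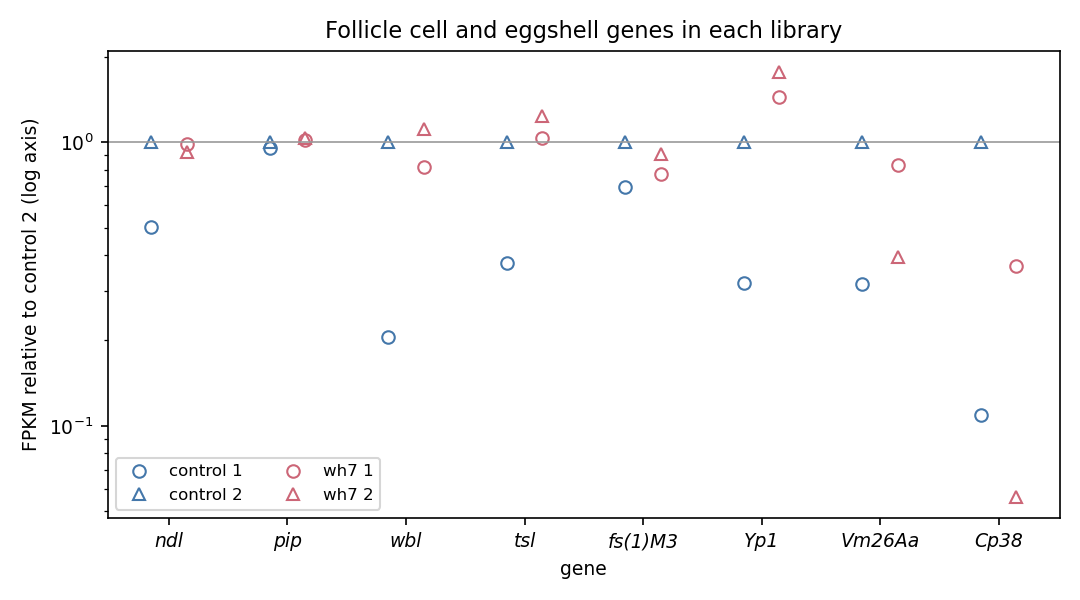
FPKM of follicle cell and eggshell genes in each library divided by control 2, on a log axis, with circles for library 1 and triangles for library 2 of each genotype. Control 1 is the lowest library for ndl, wbl, tsl, fs(1)M3, Yp1 and Vm26Aa, and by little for pip. For the chorion gene Cp38 the lowest library is wh7 2.

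Upstream, genes of gurken and Egfr signalling were called in both directions at shares near those of all tested genes (21.2% higher and 18.4% lower). Of 17 tested genes of 18, 5 were called higher and 4 lower (median change -0.06), counts that were 1 to 2 higher and 0 lower when any 1 library was left out. mirr, a homeobox gene that acts downstream of Egfr in dorsal follicle cells, rose from 2.55 to 11.2 FPKM (limma adjusted p = 0.00675) and Egfr from 5.02 to 17.9 FPKM (0.0101, call lost without wh7 1 or wh7 2). aos, an Egfr feedback inhibitor gene, rose from 4.27 to 7.51 FPKM (0.0463), a call that ended without any 1 library and a direction that reversed to -0.08 after quantile normalization. grk, the ligand gene, was at 14.5 and 15.3 FPKM in controls and at 17.6 and 22.9 FPKM in wh7 (0.106). Among 5 partners of sulfation and secretion, 2 fell and 0 rose (median -0.31). With any 1 library left out the median change lay between -0.39 and -0.23. The change of wbl, 0.74 with all libraries, was 1.54 without control 2 and -0.06 without control 1. sel, which encodes a saposin-like protein needed for embryonic dorsoventral patterning, fell from 49.5 to 31.1 FPKM (0.00973, call lost without either control), and the secretion gene Tango1 from 48.6 to 35.7 FPKM (0.0195, call lost without any 1 library).

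Cytoplasmic partners of Toll gave 1 call, where 18.4% of all tested genes were called lower and 21.2% higher. Of 13 adaptors and regulators, all tested, 1 was called lower and 0 higher (median -0.23, range -0.35 to 0.22). The called gene was wek, an adaptor gene, at 36.2 and 28.2 FPKM (limma adjusted p = 0.0413, call lost without any 1 library). tub, whose product recruits Pelle, was at 64.2 and 54.3 FPKM in controls and at 46.4 and 50.7 FPKM in wh7 (0.114). Myd88, the adaptor gene at the receptor, was at 38.3 and 35.003 and then 32.4 and 29.8 FPKM (0.132). Spn27A, the serpin gene that restrains Easter in the embryo, was at 33.9 and 34.8 and then 34.6 and 33.6 FPKM, with a change of -0.01 ± 0.0861 (SE; 0.925). Of 7 genes of other Rel proteins and their nuclear transport, 1 rose and 1 fell. The importin gene Fs(2)Ket fell from 264 to 175 FPKM (0.00962, call lost without control 1).

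Among relatives of pathway genes, Dif, 18w and Tollo were called higher. Dif, the Rel gene of adult immunity, lies 3668 bases from dl on the same strand of 2L (17413248-17433161). It was at 4.85 and 5.18 FPKM in controls and at 15.4 and 15.3 FPKM in wh7. Both wh7 values were above control (change 1.45 ± 0.132 SE, limma adjusted p = 0.00556), and the call held in each alternative fit. Dif thus went from 6.62% and 7.74% of the dl level to 28.5% and 35.1%, values without a test. Rel, the other Rel gene of the list, was at 29.8 and 32.2 FPKM in controls and at 33.6 and 49.7 FPKM in wh7 (0.182). Of 8 other Toll family receptor genes 2 were expressed highly enough to be tested and both rose, 18w from 4.77 to 16.2 FPKM (0.0272, call lost without control 1, wh7 1 or wh7 2) and Tollo from 4.59 to 12.3 FPKM (0.00917, call ended by quantile normalization or without control 1). None of the 5 other spz family genes reached the filter, and the 2 with the highest means over the 4 libraries, spz3 and spz4, were at 0.485 and 0.314 FPKM in wh7.

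Some genes of the immune branch of Toll signalling were called higher in wh7, most of them under 1 FPKM in controls, so that they passed the filter through the wh7 libraries in which they were high. Of 13 serpins and immune proteases 7 could be tested and 4 of these rose, and with no filter 2 of 13 rose and 1 fell (median 0.09). Spn27A, Spn88Ea and modSP gave no call, and the protease gene spirit, not tested, was at 0.723 and 0.408 FPKM in controls and at 0.130 and 0.0673 FPKM in wh7. The largest changes were those of the serpin genes nec (1.39 to 18.4 FPKM, limma adjusted p = 0.0112, call lost without wh7 2), Spn77Ba (0.281 to 4.83 FPKM, 0.00545) and Spn28Dc (0.524 to 3.52 FPKM, 0.00896, call ended by quantile normalization or without control 1). Of 4 recognition genes 2 were tested, and GNBP1, whose product acts with PGRP-SA in sensing bacterial peptidoglycan, rose from 1.58 up to 4.63 FPKM (0.0121, call ended by quantile normalization or without either control). Of 11 immune target genes 7 were tested and 6 rose, and with no filter 1 of 11 rose. The antifungal peptide gene Drs was at 0.477 and 0.986 FPKM in controls and at 80.9 and 17.8 FPKM in wh7 (0.0140, call lost without control 1), IM4 went from 0.204 to 28.5 FPKM (0.00592) and IM3 from 0.881 to 31.7 FPKM (0.0160, call lost without control 1). Without control 1, 2 of these targets and 2 of the serpins and proteases were called, and the latter count was also 2 without wh7 2. The 2 wh7 libraries differed several-fold in Drs. In the same libraries 5 of 6 hemocyte and 4 of 4 tested fat body markers were called higher (3 and 1 without control 1). Examples are the hemocyte gene Pxn, from 1.20 to 53.3 FPKM, and the fat body gene Tsf1, from 0.112 to 10.2 FPKM (0.0119, lost when control 1 was left out), and their part was not tested. The filter thus favours rises in these low lists, and their counts are no support for a shared direction.

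Genes that Dorsal regulates in the embryo were mostly near 0 in the ovary, where 6 of 14 could be tested. Of these zen, at 0.954 and 0.987 FPKM in controls, passed the filter only through the wh7 libraries, in which it was high. With no filter 0 of the 14 genes were called higher and 0 lower. dpp rose from 1.33 to 6.39 FPKM (limma adjusted p = 0.0132, call ended by quantile normalization or without control 1), brk from 2.48 to 8.24 FPKM (0.0134) and zen from 0.970 to 3.95 FPKM (0.00896). Without control 1, and after quantile normalization, 0 genes of the list were called higher, and without wh7 2 the count was 2. The calls of brk and zen ended under quantile normalization too, that of brk also without control 1, wh7 1 or wh7 2, and that of zen without control 1 or control 2. twi and sna, the mesoderm genes, were under 0.1 FPKM in all 4 libraries. vfl (zld), a maternal gene for the factor that opens the zygotic genome, was in this list as a partner of Dorsal and fell from 76.1 to 39.4 FPKM (0.0121, a call that ended without wh7 2 or control 1).

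Other maternal axis systems held genes with reductions of the same size. For comparison, 18.4% of all tested genes were called lower and 21.2% higher, with a median change of -0.04. In the terminal system 3 of 7 tested genes fell and 0 rose (median -0.08). They were the receptor gene tor, from 54.6 to 33.6 FPKM (limma adjusted p = 0.0127), phl, the Raf kinase gene, from 36.7 to 22.6 FPKM (0.0196), and the eggshell gene fs(1)N, from 62.4 to 40.7 FPKM (0.0128). Of 14 anterior and posterior genes 6 fell and 0 rose (median -0.26). Lists share genes, since bcd, osk, nos, vas, orb and BicD are also germline markers and phl is also in the gurken and Egfr list. Their counts are therefore not independent. exu went from 205 to 122 FPKM (0.0235), swa from 236 to 148 FPKM (0.00858) and bcd, the anterior determinant, from 49.7 to 30.3 FPKM (0.0222), while osk was at 584 and 592 FPKM in controls and at 503 and 618 FPKM in wh7 (0.656). Without control 1 the counts of genes called lower were 0 and 0, as for the dorsoventral genes, and without control 2, wh7 1 or wh7 2 they were 1, 1 and 0 in the terminal and 2, 3 and 2 in the anterior and posterior system. Whether the dorsoventral genes differ from these systems was not tested.

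**Figure D5:**
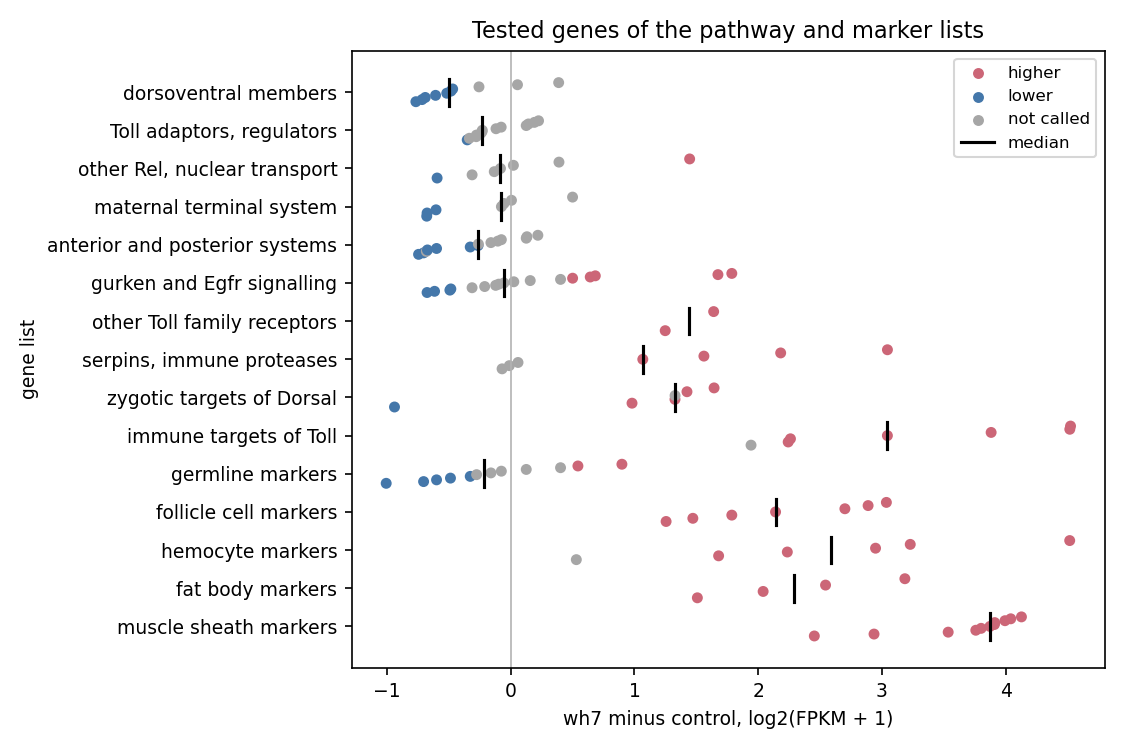
Change from control to wh7 on the log2(FPKM + 1) scale for each tested gene of the pathway and marker lists, with a black bar at each list's median and colours for genes called higher or lower at a limma adjusted p under 0.05. The dorsoventral genes have a median of -0.50, the Toll adaptors of -0.23, the immune targets of Toll of 3.04 and the muscle sheath markers of 3.87. The immune targets passed the filter through the wh7 libraries, in which they were high, and their median with no filter was 2.24.

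Several members lie near each other in the genome. Tl, spz and pll lie within 454 kb of chromosome 3R (26799041-27253182), where 7 of the 32 other tested genes were called lower and 6 higher. cact and dl lie within 1137 kb of 2L (16313036-17450364), where 5 of 57 others were called lower and 25 higher. The first share, 21.9%, was close to the 18.4% of all tested genes, and the second, 8.77%, was under it. The share called higher in the stretch from cact to dl was 43.9%, beside 21.2% of all tested genes.

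Exons of 6 members overlap a gene on the opposite strand. The labels describe strand-specific libraries but do not state whether reads were counted by strand. The largest overlap was 208 exon bases between pip and fal, a gene at 36.3 and 32.9 FPKM in controls and 26.6 and 25.8 FPKM in wh7, far above pip. cact shares 62 exon bases with fzy, pll 31 with TfIIA-L, snk 20 with CG11668, spz 5 with CG43935 and ndl 3 with CG18769. fzy fell from 131 to 83.6 FPKM, CG18769 was at 64.2 and 48.3 FPKM and then 36.6 and 39.1 FPKM, and TfIIA-L had a change of -0.08 (limma adjusted p = 0.461). If counted without strand, reads from the shared bases cannot be told apart, which bears most on pip because its own level is low. gd, ea, Tl and dl share no exon bases with an annotated gene of another name. The deposited loci of ndl, pip, snk, pll and cact are wider than the annotated genes and span these neighbours. That of ndl has 52629 bases against 9429 annotated, and that of pll 5352 against 2052. Whether reads of the neighbours entered the FPKM of these members was not tested.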

How the data were processed

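Strand-specific libraries were read as single ends of 75 bp, per the labels' protocols. bcl2fastq 2.0 and Bowtie 0.12.2 as well as the builds BDGP6 and mm8 have no role given in the submitters' processing notes, and no source used here gives the tool behind the values. The authors deposited FPKM per library and genotype, with 0.0001 for 0, and for each gene a wh7/control ratio with its log2, p-value and q-value, per the file headers. Of the 17475 gene identifiers, 98.3% were found in the BDGP6 annotation, 99.8% of these on the same chromosome, and gene positions in the text are from that annotation. Total reads are not known here, and 1 read in 1 kb was worth about 0.0492 to 0.0528 FPKM in genes with a single annotated transcript. 0 per-library columns were left out.

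The 8580 genes that reached 1 FPKM or more in 2 or more libraries entered limma (version 3.58.1, R 4.3.3) as log2(FPKM + 1). The fit used a trend of variance on mean level and Benjamini-Hochberg adjustment over all genes (threshold 0.05). The test was tried on simulated data first. Every adjusted p in the text is from limma, and changes on this scale understate those of low genes. Values with ± are SE where marked. Members and lists were chosen with earlier results of these data known, and some lists share genes. Named genes were wuho, the members, and up to 3 called genes of each pathway list (2 of each marker list) with the largest change, or the 2 highest where none was called. Genes named besides these, such as tub, Myd88, Spn27A, wbl, tsl, fs(1)M3, Yp1, vas, grk, osk, vfl, twi, sna and the overlapping neighbours, were chosen after their values were seen. Alternatives covered the pseudocount, the filter, scaling, the trend, each library left out and a replicate block.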

Additional observations from a re-analysis of the deposited data

How the results depend on the processing

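The direction of the 8 germline members held in all 13 alternatives. Only quantile normalization, median ratio scaling and the rescaled sum could have reversed it, since both wh7 libraries lay under both controls in these genes. The count of members called lower (7) was 3 with no filter and 4 with FPKM rescaled to the same sum, and 0 to 5 when 1 library was left out, where a group of 1 library is assumed to vary like the other. It was 5 to 7 under the other alternatives, with snk and pip in place of cact and dl after quantile normalization, and 0 members were called higher in any. Genes called higher (1820) numbered 1087 with a filter of 5 FPKM, 948 with no filter and 1096 after quantile normalization, and 551 to 1397 with 1 library left out. Genes called lower (1583) numbered 290 with no filter, 919 with the rescaled sum and 60 to 605 with 1 library left out. Higher calls were 53.5% of all calls as deposited, 76.6% with no filter, 67.4% with the rescaled sum and 44.9% after quantile normalization. Quantile normalization reversed pip (-0.94) and aos (-0.0758). Leaving out 1 library reversed ndl (-0.0622 to 0.837), Cp38 (-2.80 to 0.396), Yp3 (-0.26 to 1.11), Vm34Ca (-1.71 to 0.10) and Vm26Aa (-0.81 to 0.848), in log2. Vm26Aa also reversed after median ratio scaling (-0.0225), quantile normalization (-0.16) and the rescaled sum (-0.0179). Apart from construction (fewer libraries or other genes tested), the cause was not tested. Replicate numbers do not pair the samples by any label. With the replicate number as a block, 7 members and 1749 genes were called lower and 1875 higher, and with the crossed pairing, added after seeing a correlation of -0.165 between same-numbered deviations, 6, 1074 and 1655. The crossed pairing also called 8 of 10 eggshell and 2 of 6 vitelline membrane genes lower, against 0 without it. Low read numbers limit pip and snk most.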
